A study of Mus musculus with 26 samples.

Results

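Spp1-high embryonic microglia were chosen by their own Spp1 count in 12 droplet libraries of sorted E13.5 and E15.5 mouse microglia. Barcodes were kept where 500 genes or more were detected and mitochondrial genes took no more than 20% of the UMIs (unique molecular identifiers, the tags that count captured RNA molecules). A member held at least 2 UMIs of Csf1r and C1qa together, at least 20 Spp1 UMIs per 10,000, at most 1 Ms4a7 UMI and under 8 UMIs over the dividing-cell genes Top2a, Mki67, Cenpf, Cenpe, Ube2c and Birc5. These gates selected 449 cells, which were 1.79% of the 25032 microglia that met all gates except Spp1 and 1.18% of the 37948 embryonic barcodes kept. The same gates without the Spp1 threshold gave 24583 other microglia for comparison. E15.5 MIA replicate 1 held 149 of the 449 members, or 33.2%.

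Microglia came from the S1 (somatosensory) cortex of wild-type C57Bl/6N embryos, pooled over sexes, and were sorted as Cd11b-positive, Cx3cr1-positive and Cd45-low cells. Dams were injected into the peritoneum at E12.5 with Poly(I:C), a viral RNA mimic used for maternal immune activation (MIA), or with saline. Each of the 4 groups (E13.5 saline, E13.5 MIA, E15.5 saline and E15.5 MIA, labelled E13 and E15) had 3 libraries of pooled embryos, so p-values measure the spread between pools. Libraries of P14 microglia, 6 in all, served for comparison of the share and of levels and entered no test. They were saline replicates 1 and 2, a female and a male library of saline replicate 3, and MIA replicates 1 and 2. Their share and levels are pooled over both treatments.

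Spp1 encodes osteopontin, a secreted phosphoprotein that binds integrins and CD44. In the developing brain, microglia that express Spp1 together with Gpnmb (a transmembrane glycoprotein of lysosome-rich cells), Lpl (lipoprotein lipase), Fabp5 (a fatty acid binding protein) and Igf1 (insulin-like growth factor 1) are known from axon tracts and regions of proliferation, where they are amoeboid and phagocytic. Homeostatic microglial genes such as P2ry12 and Tmem119 are known to be low in such cells.

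The promoters of Spp1 and of Gpnmb are shown because they are the genes of the gate and of its leading co-marker. Both are 300 bases of GRCm38.p6 from RefSeq, with 250 bases before the start of the gene. The Spp1 stretch is chr5:104434861-104435160 on the plus strand, the upstream of 2 Spp1 starts in the table. The Gpnmb stretch is chr6:49036268-49036567 on the plus strand. Capitals mark TGANTCA, the letters bound by AP-1 factors. The other letters searched were CACGTG, and TCANGTG, an E-box form bound by MiT/TFE factors that overlaps CACGTG when its N is C. All were searched on both strands.
Spp1: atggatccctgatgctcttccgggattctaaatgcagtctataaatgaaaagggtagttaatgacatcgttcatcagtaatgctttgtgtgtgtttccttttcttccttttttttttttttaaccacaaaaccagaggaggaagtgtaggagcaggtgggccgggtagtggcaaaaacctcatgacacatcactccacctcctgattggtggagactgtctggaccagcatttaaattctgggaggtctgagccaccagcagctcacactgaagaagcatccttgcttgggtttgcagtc
Gpnmb: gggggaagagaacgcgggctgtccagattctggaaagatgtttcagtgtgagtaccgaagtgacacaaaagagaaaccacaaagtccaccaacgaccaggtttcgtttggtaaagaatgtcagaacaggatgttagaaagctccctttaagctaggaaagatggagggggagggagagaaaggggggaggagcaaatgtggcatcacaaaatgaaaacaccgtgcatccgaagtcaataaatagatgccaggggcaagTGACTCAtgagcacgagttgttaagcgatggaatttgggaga
The Gpnmb match begins at base 9 of the transcribed part, and neither Spp1 stretch in the table held any of the 3 motifs. Of the 25 genes highest in Spp1-high cells, described below, 19 had a promoter in the table, and 4 of these (Anxa2, Gpnmb, Igf1 and Plaur), or 21.1%, held TGANTCA, against 8.97% of all 27025 genes in the table. Over the 95 matched genes at least 2-fold higher in Spp1-high cells the share was 11.6%, and 15 of the 143 matched genes at least 2-fold lower held it. TCANGTG stood in 3 of the 19 genes, or 15.8%, in 26.3% of the 95, in 11.9% of the 143 and in 16.1% of all genes. CACGTG stood in 5.26%, 16.8%, 9.09% and 8.09% of the same sets.

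The libraries differed in depth and in how many barcodes they shared. UMIs in kept barcodes ranged from 6160925 to 105751888 per library. E13.5 replicates 1 and 2 and E15.5 replicate 3 of both treatments, 6 libraries in all, shared over 2% of the barcodes of the smaller library with another sorted library, up to 258 barcodes, or 68.8% of E13.5 MIA replicate 2, with the female library of P14 saline replicate 3. Among embryonic libraries the most was 230 barcodes, or 61.3% of E13.5 MIA replicate 2, with E15.5 MIA replicate 3. Of the 449 members, 17 carried a barcode that was also seen in another sorted library, 10 of them among the 426 members of the 7 libraries used for gene comparisons. Spp1 was also found outside microglia. Barcodes with no Csf1r or C1qa UMI and at least 10 UMIs of neuronal genes held Spp1 at 22.8 CPM (UMIs of a gene per 1000000 UMIs) in E13.5 MIA replicate 3 (106 barcodes, median 2916 UMIs) and at 14.3 CPM in E15.5 MIA replicate 1 (367 barcodes, median 4307 UMIs), with a Spp1 UMI in 13.2% and 10.6% of them. In the same libraries 23.6% and 20.1% of the microglia below the threshold had a Spp1 UMI, against 2.46% to 9.39% in 9 other libraries and 20.1% in E13.5 saline replicate 3. The threshold for members, 20 per 10,000, equals 2000 CPM, but in shallow barcodes 2 Spp1 UMIs reached it. At most 2 Spp1 UMIs were held by 21 of 60 members of E13.5 saline replicate 3 and 24 of 148 of E13.5 MIA replicate 3. Other microglia under 2000 UMIs in these libraries held Spp1 at 241 and 250 CPM, against 35.7 and 67.6 CPM in deeper ones. How far stray Spp1 RNA made members was not tested.

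The first question was how many microglia were Spp1-high after saline and after MIA. Shares are given with exact (Clopper-Pearson) 95% intervals, which cover counting error only. At E13.5 the shares after saline were 0.94% (0.306 to 2.18, 5 of 532 cells), 0.773% (0.312 to 1.59, 7 of 905) and 3.32% (2.55 to 4.26, 60 of 1805). After MIA they were 2.5% (0.519 to 7.13, 3 of 120), 0 of 213 cells (exact interval 0 to 1.72, or up to 1.41% by a limit of 3 counts), and 5.03% (4.27 to 5.88, 148 of 2942). Replicate 3 was the highest library of each treatment, and the groups overlapped.

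At E15.5 the shares after saline were 0.311% (0.156 to 0.557, 11 of 3532), 0.985% (0.638 to 1.45, 25 of 2538) and 0.347% (0.19 to 0.582, 14 of 4033). After MIA they were 3.5% (2.97 to 4.1, 149 of 4257), 0.65% (0.392 to 1.01, 19 of 2923) and 0.649% (0.281 to 1.28, 8 of 1232). Only replicate 1 lay above the saline range. The other MIA libraries lay inside it.

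No difference between the mean shares passed a test over libraries. For E13.5, MIA libraries averaged 2.51% ± 2.52 and saline libraries 1.68% ± 1.43 (SD, n = 3 each), a difference of 0.831 percentage points (two-sided exact permutation test, p = 0.7, where 3 against 3 cannot go below 0.1). For E15.5 the means were 1.6% ± 1.65 and 0.548% ± 0.379 (SD, n = 3 each), a difference of 1.05 points (exact permutation p = 0.4). Without replicate 1 of E15.5 MIA that difference was 0.102 points (exact permutation p = 0.9), and without replicate 3 of E13.5 MIA the E13.5 difference was -0.429 points. The MIA effects of the ages differed by 0.221 points (exact permutation p = 0.94 over 400 assignments within ages). E15.5 libraries of equal replicate number were treated as pairs because they correlated, though the labels name no pairs. Exchanging treatments only within pairs gave p = 0.75, with a smallest possible value of 0.25 (exact permutation test).

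Spp1 over all gated microglia is the measure that chose the members, so its levels are no independent support for the shares. At E15.5 Spp1 was at 992, 64.3 and 61.5 CPM after MIA and at 48.0, 177 and 48.6 CPM after saline. The means were 373 ± 537 and 91.1 ± 74.1 CPM (SD, n = 3 each, exact permutation p = 0.5), and without MIA replicate 1 the difference turned to -28.2 CPM. At E13.5 Spp1 was at 284, 16.6 and 406 CPM after MIA and at 64.1, 46.6 and 222 CPM after saline (exact permutation p = 0.4). Members and other cells both entered these levels, so more Spp1-high cells and more Spp1 per cell cannot be told apart in them.

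The ages held nearly equal numbers of members, 223 at E13.5 and 226 at E15.5, but E13.5 members came from fewer microglia. The mean share over libraries was 2.09% ± 1.88 at E13.5 and 1.07% ± 1.21 at E15.5 (SD, n = 6 each), a difference of -1.02 points (exact permutation of ages within treatments, p = 0.345). Without 1 library the difference ran from -0.434 points, without E13.5 MIA replicate 3, to -1.51 points, without E15.5 MIA replicate 1. It was -3.44 points (exact permutation p = 0.085) at a threshold of 10 per 10,000, -0.171 at 40 per 10,000 and -0.179 with all kept barcodes as the denominator.

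**Figure D1:**
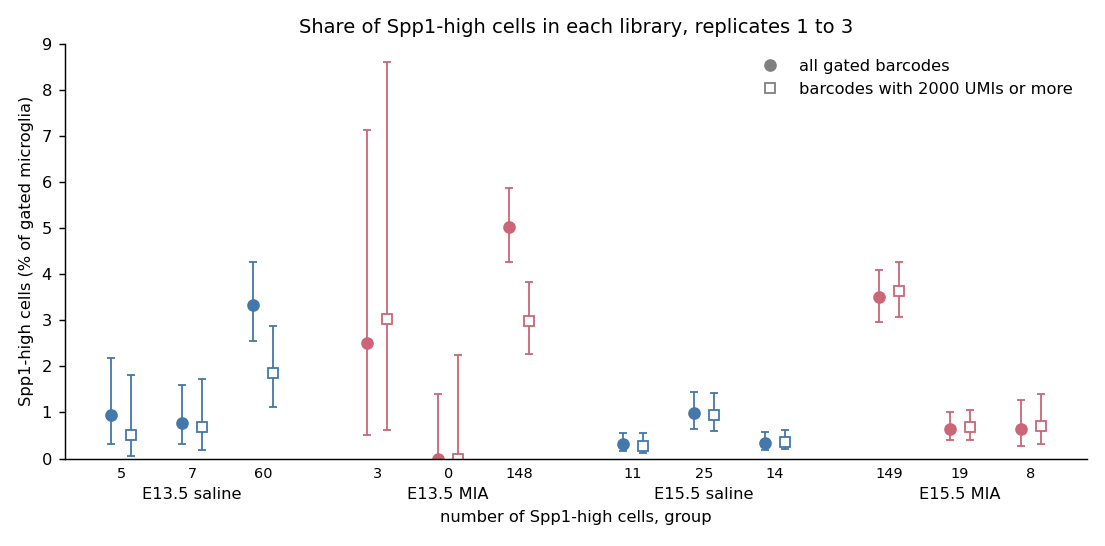
Share of Spp1-high cells among gated microglia in percent (vertical axis) in each of the 12 embryonic libraries, in order of replicate 1 to 3 within each group, with the number of members under each library. Filled circles are all gated barcodes, open squares barcodes with 2000 UMIs or more, bars are exact 95% intervals, or the limit that a count of 0 allows, and blue and red are saline and MIA. E13.5 saline 3, E13.5 MIA 3 and E15.5 MIA 1 stand at 3.32%, 5.03% and 3.5%, and the first 2 are at 1.85% and 2.98% among deeper barcodes.

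Many E13.5 members were shallow barcodes. Members of E13.5 saline replicate 3 had a median of 1002.5 UMIs and 3 Spp1 UMIs, and those of E13.5 MIA replicate 3 a median of 1462 UMIs and 6 Spp1 UMIs, against medians of 2660 and 7625.5 UMIs in the other microglia of these libraries. Of the 152 members under 2000 UMIs, 132 lay in these libraries. E15.5 members were deep, with median UMIs between 6470 and 20262.5 and median Spp1 UMIs between 65 and 96, and E15.5 MIA replicate 1 had a median of 17001 UMIs against 9168.5 in its other microglia.

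Shallow E13.5 members were closer in level to other microglia of their depth than deep members were. In E13.5 MIA replicate 3, Fabp5 stood at 613 CPM in 91 members under 2000 UMIs and at 386 CPM in other microglia of that depth. In the 57 deeper members it stood at 3419 CPM, against 374 CPM in 1857 deeper other cells. Igf1 showed the same split, with 88.9 and 43.6 CPM in shallow members and shallow others and 317 and 35.8 CPM in deep ones.

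Among barcodes with at least 2000 UMIs, 297 members remained, 85 at E13.5 and 212 at E15.5, and E15.5 MIA replicate 1 held 47.5% of them. The share in that library was then 3.63% (3.07 to 4.27). The E15.5 MIA and saline means were 1.68% ± 1.7 and 0.531% ± 0.361 (SD, n = 3 each, exact permutation p = 0.3), and the difference between ages was -0.404 points (exact permutation p = 0.62).

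**Figure D2:**
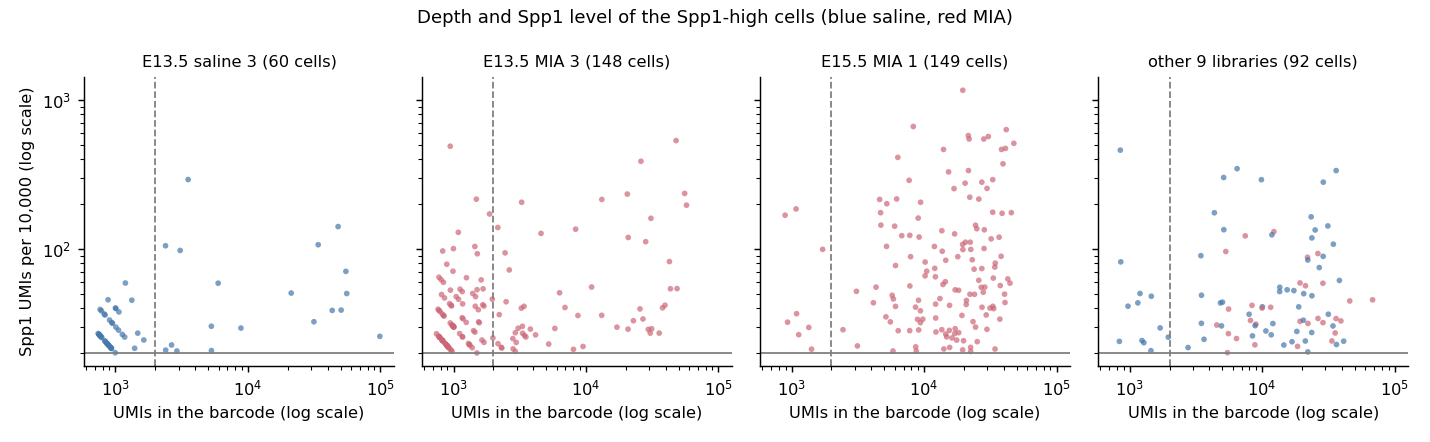
UMIs per barcode (horizontal axis, log scale) and Spp1 UMIs per 10,000 (vertical axis, log scale) of the 449 Spp1-high cells, in the 3 libraries with most members and in the other 9 libraries, with saline in blue and MIA in red. The dashed line is at 2000 UMIs and the solid line at the threshold of 20. The E13.5 replicate 3 libraries have most of their points left of the dashed line, 41 of 60 and 91 of 148, and E15.5 MIA 1 has 8 of 149.

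Members ranged widely in Spp1. The median was 40.0 Spp1 UMIs per 10,000 and the highest cell had 1157. There were 91 members at 100 or more, and the threshold cut through a continuous range, with 126 gated microglia between 15 and 20 and 85 members between 20 and 25.

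Levels of other genes of the class were read along this range. In E15.5 MIA replicate 1, over cells with at least 2000 UMIs, Fabp5 was at 383 CPM in 2981 microglia without a Spp1 UMI, 582 CPM in 667 cells up to 5 Spp1 UMIs per 10,000, 1862 CPM in 90 cells between 5 and 20, and then 2697, 3751 and 7833 CPM in the 3 groups of members. P2ry12, the purinergic receptor of homeostatic microglia, ran the other way, from 2418 through 2115 and 1187 to 941, 667 and 217 CPM. The remaining E15.5 libraries together gave Fabp5 levels from 153 to 4528 CPM and P2ry12 levels from 2096 to 267 CPM between the same ends. At E13.5 the order was uneven in the 3 groups of members, of 47, 21 and 17 cells, with Fabp5 at 3299, 2397 and 4283 CPM, Gpnmb at 33.7, 9.93 and 61.5 CPM and Lpl at 818, 915 and 635 CPM. P2ry12 ran from 1031 CPM without Spp1 to 386 CPM at 100 or more. The levels are a description over cells that share libraries, and the groups differed in depth. Median UMIs rose from 9579 without Spp1 to 21038 at 100 or more in E15.5 MIA replicate 1, lay between 10081 and 18887 with 12276 at 100 or more in the remaining E15.5 libraries, and at E13.5 were 14054 without Spp1, 3783 between 5 and 20 and 20830 at 100 or more.

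**Figure D3:**
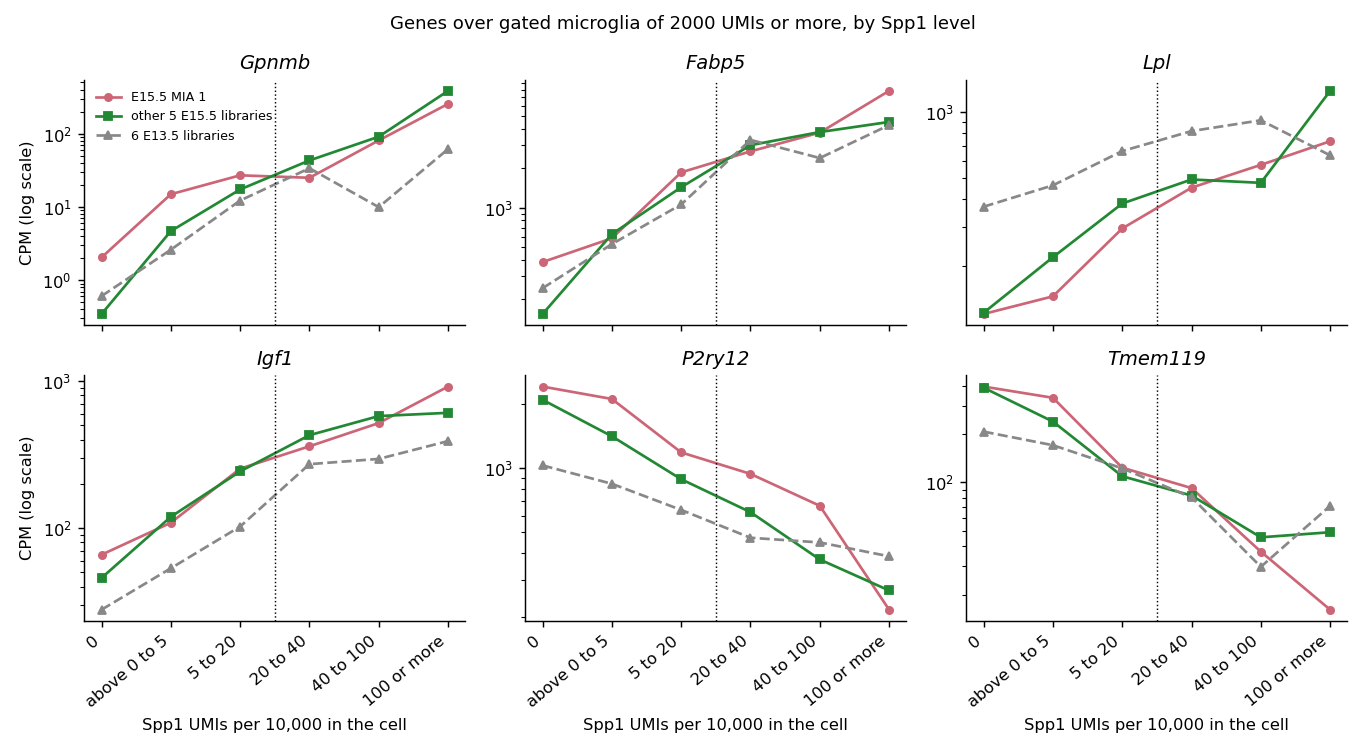
CPM (vertical axes, log scale) of 6 genes in gated microglia with 2000 UMIs or more, grouped by Spp1 UMIs per 10,000 in the cell (horizontal axis), with the threshold of 20 as a dotted line. Red is E15.5 MIA 1, green the other 5 E15.5 libraries and grey the 6 E13.5 libraries. In the E15.5 cells Gpnmb, Fabp5, Lpl and Igf1 end higher at the right than at the left and P2ry12 and Tmem119 lower. In the E13.5 cells Lpl is at 915 CPM between 40 and 100 and at 635 CPM at 100 or more, and Gpnmb dips to 9.93 CPM between 40 and 100.

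Spp1-high and other microglia were then compared within each of the 7 libraries that had at least 10 members. The gate on Spp1 made this contrast, so the values are a description with no test. Of 5826 genes at a mean of at least 20 CPM in either class, 119 were at least 2-fold higher in the median library and higher in 7 of 7, which is 2.04%, and 180 were 2-fold lower, which is 3.09%. The median log2 ratio of CPM + 1 over all these genes was -0.04. Among barcodes with at least 2000 UMIs, 141 and 208 genes met the rule in 6 libraries and shared 112 and 156 genes with the lists above. Without E15.5 MIA replicate 1, 116 and 150 genes met it and shared 107 and 142. Without E13.5 saline replicate 3, 145 and 276 genes met it and shared 116 and 177.

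The 3 co-markers that name the class were all among the 25 highest genes. Gpnmb was at 14.9 to 232 CPM in Spp1-high cells, with a median of 86.7, and at 0.253 to 5.47 CPM in other microglia, with a median of 1.67. The lowest of the Spp1-high values was that of E13.5 MIA replicate 3. The median log2 ratio was 5.67, but only 76 of 449 members had a Gpnmb UMI, and in E15.5 saline replicates 1, 2 and 3 a single cell held 69.2%, 57.3% and 75% of the Gpnmb UMIs of its library's members. In E15.5 MIA replicate 1, 35 of 149 members had a Gpnmb UMI.

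Fabp5 was at 2847 to 5071 CPM in Spp1-high cells and at 126 to 472 CPM in other microglia, a median log2 ratio of 3.91. The ranges did not overlap. Fabp5 is also expressed by neural cells, and 72.5% of 531 E15.5 neuron barcodes had a Fabp5 UMI at 2000 UMIs per cell. Lpl was at 518 to 760 CPM against 99.6 to 397 CPM, with a median log2 ratio of 2.20 and the smaller ratios at E13.5, where other microglia also held Lpl at 365 and 397 CPM.

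At an equal 2000 UMIs per cell, 12.7% of 212 E15.5 members had a Gpnmb UMI, 53.8% Igf1, 85.8% Fabp5 and 51.9% P2ry12. Without thinning the shares were 25.9%, 86.3%, 95.8% and 88.7%, at a median depth of 17496 UMIs. Of 16578 other E15.5 microglia, thinned alike, 0.163% had Gpnmb, 8.32% Igf1, 18.9% Fabp5 and 90.5% P2ry12. Neuron barcodes had Gpnmb in 0 of 531, a limit of 0.565% by 3 counts on barcodes with a UMI at this depth and not on expression, Igf1 in 0.377% and P2ry12 in 9.04%.

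**Figure D4:**
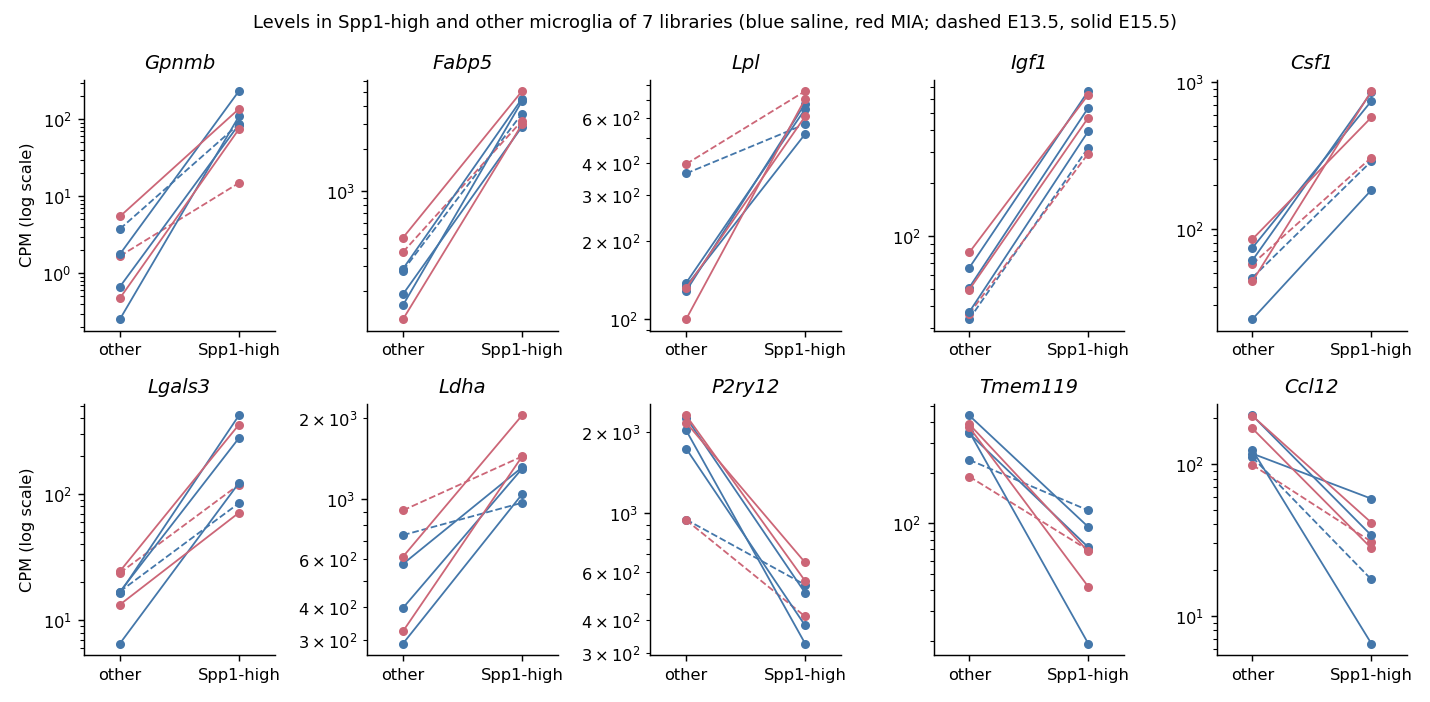
CPM (vertical axes, log scale) of 10 genes in other microglia and in Spp1-high cells of the same library, with a line for each of the 7 libraries (blue saline, red MIA, dashed E13.5, solid E15.5). The lines of Gpnmb, Fabp5, Lpl, Igf1, Csf1, Lgals3 and Ldha run up and those of P2ry12, Tmem119 and Ccl12 run down in each library.

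Secreted and matrix genes stood high as a group. Of 11 such genes compared (Spp1 left out), 8 met the 2-fold rule upwards and 0 downwards, with a median log2 ratio of 2.05. Igf1 was at 294 to 667 CPM against 33.6 to 80.5 CPM in other microglia, a median log2 ratio of 3.22 that varied little between libraries (2.97 to 3.38). Csf1, a ligand of the Csf1r receptor that microglia themselves carry, was at 184 to 870 CPM against 24.2 to 84.9 CPM. Fam20c, the kinase that phosphorylates secreted proteins including osteopontin, was at 21.2 to 150 CPM against 1.63 to 6.68 CPM. Lgals3, which encodes the lectin galectin-3, was at 71.2 to 420 CPM against 6.56 to 24.5 CPM. Plaur, the urokinase receptor, and Plau, urokinase itself, had median log2 ratios of 2.69 and 2.05, and Lgals1 and Sdc4 completed the 8. Igf1, Csf1, Fam20c, Lgals3, Plaur and Lgals1 are also on the axon tract list described below. That list shares Lpl and Fabp5 with the lipid list, so the lists are not separate results.

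The other genes among the 25 highest had median log2 ratios between 2.06 and 3.51. They included the scavenger receptor Colec12, the late endosome protein Rab7b, the heparan sulfate cleaving enzyme Hpse, the epoxide hydrolase Ephx1, the lysosomal alpha-galactosidase Gla, the annexin Anxa2, the myelin protein gene Pmp22, the stress transcription factor Atf3, the fatty acid binding protein Fabp3 and the tetraspanin Cd9. Of the 25 genes, 18 had no overlap between the libraries' Spp1-high and other values, and over all 5826 genes 2.80% were higher without overlap. The 25 were chosen by their ratios, so this count is no separate support.

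The axon tract list was drawn from background knowledge of such microglia, with earlier results of these data known. Of its 33 genes in the data 28 were compared, with 20 at least 2-fold higher and 0 lower and a median log2 ratio of 2.19. A gene could enter this and the other lists through its level in Spp1-high cells alone, as Gpnmb and Fam20c did. The counts over lists are therefore a description and no support for the class. Its other 8 genes also had medians above 0, and the list's Cd68, a lysosomal membrane protein, had a median log2 ratio of 0.53. The lysosome list had 1 of 24 genes at least 2-fold higher, Atp6v1a, a subunit of the proton pump, with a median of 0.41 over the list. Itgax, a marker of activated microglia, was below the level for comparison, at 3.96 to 37.7 CPM in Spp1-high cells.

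Lipid and sugar metabolism genes differed in pattern. Of 19 lipid handling genes 6 were at least 2-fold higher, Lpl, Fabp5, Fabp3, Plin2, Soat1 and Nceh1, of which Plin2 coats lipid droplets, Soat1 esterifies cholesterol and Nceh1 hydrolyses its esters. The median over the list was 0.34, and Apoe was near level, with a log2 ratio of 0.34. Of 17 glycolysis and hypoxia genes 8 were at least 2-fold higher, 17 had a median above 0 and the list's median was 1.21. Ldha, lactate dehydrogenase, was at 971 to 2044 CPM against 292 to 910 CPM, and Tpi1, Pkm and Hif1a had median log2 ratios of 1.66, 1.21 and 1.25.

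Genes of sterol synthesis and its feedback were on no list and are named after their values were seen, since Idi1 was among the 25 highest. The median log2 ratios of the 8 named here (Hmgcs1, Mvd, Idi1, Fdps, Sqle, Cyp51, Insig1 and Stard4) lay between 1.28 and 2.23, which describes these genes and no pathway. Cyp51, a demethylase of the pathway, was at 45.9 to 172 CPM in Spp1-high cells and 19.5 to 32.1 CPM in others.

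Homeostatic microglial genes stood low but were present. Of 21 genes, 10 were at least 2-fold lower and 0 higher, with a median log2 ratio of -0.98. P2ry12 was at 326 to 653 CPM against 939 to 2303 CPM, a median log2 ratio of -2.04, and Tmem119 at 19.3 to 119 CPM against 190 to 437 CPM, a ratio of -2.23. The transcription factor Sall1 had a ratio of -1.60 and the sialic acid binding lectin Siglech one of -1.24. Trem2 and Cx3cr1 had ratios of -0.00 and -0.63.

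The 15 lowest genes had median log2 ratios between -3.09 and -2.08. Besides Tmem119 they included the chemokine gene Ccl12, at 6.56 to 59.0 CPM against 98.3 to 208 CPM, Selplg, which encodes the P-selectin ligand, the fructose transporter Slc2a5, the chemokine receptor Ccr1 and the interferon-induced Ifitm3. Nfib and Sox11, transcription factors of neural cells, were also among them. Of the 15 genes 8 had no overlap between the classes, against 2.73% of all genes in that direction. These genes too were chosen by their ratios, so the count is no separate support.

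**Figure D5:**
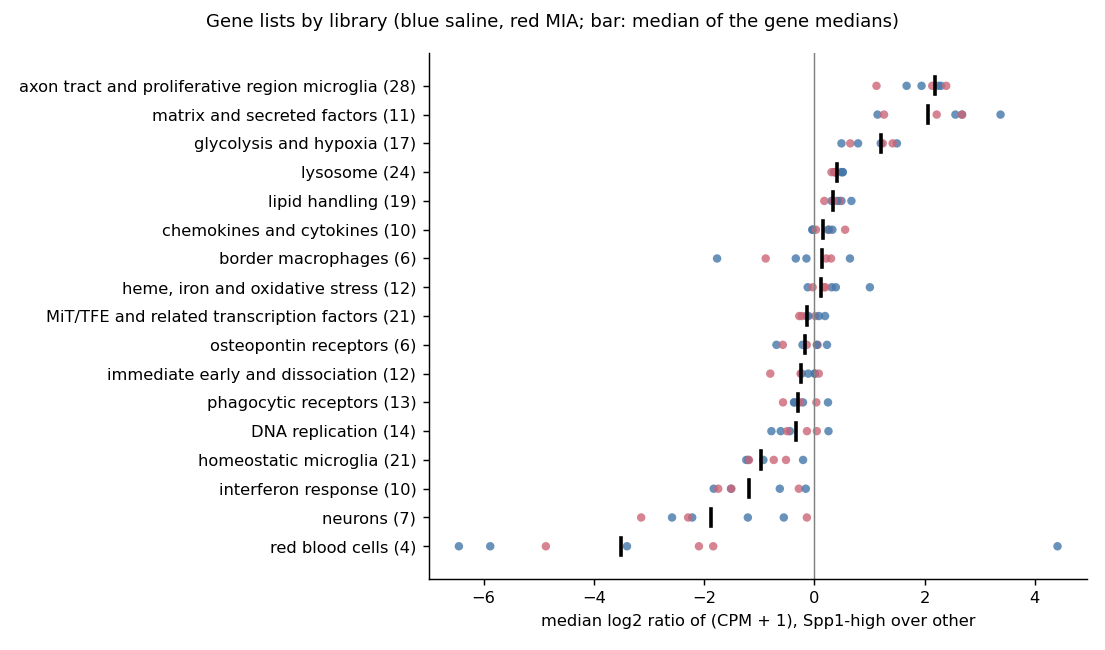
Median log2 ratio of CPM + 1 between Spp1-high and other microglia (horizontal axis) over the genes of each list, with the number of genes compared in brackets. Points are the 7 libraries (blue saline, red MIA) and bars the median over genes of the gene medians. The axon tract, matrix and glycolysis lists lie to the right in each library, the homeostatic list to the left, and red blood cell genes spread widest.

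Chemokine genes were mixed. Ccl3 and Ccl4, chemokine ligands, had median log2 ratios of 2.44 and 2.07, with wide ranges of 308 to 2521 CPM and 39.4 to 1800 CPM in Spp1-high cells. Ccl3 and Ccl4 together reached 20 UMIs per 10,000 in 6 of 223 E13.5 members, or 2.69%, against 1.06% of other E13.5 microglia, and in 70 of 226 E15.5 members, or 31.0%, against 2.93%. Without E15.5 MIA replicate 1, which held 46 of the 70, the E15.5 share was 31.2% of 77 members. Ccl9 was higher and Ccl12 and Il1a were lower by the 2-fold rule. Hmox1, the heme oxygenase, reached the same level in 16 members, or 3.56%, against 2.24% of others. Of the 16, 10 were in E13.5 MIA replicate 3 and 3 in E13.5 saline replicate 3, where 91 of 148 and 41 of 60 members held under 2000 UMIs, and 0 of 149 members of E15.5 MIA replicate 1 reached it. Immediate early and dissociation genes had 1 of 12 genes at least 2-fold higher, Atf3, and a median of -0.24.

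Receptors of osteopontin were not high as a group. Of 6 compared, Itgb3 was at least 2-fold higher, at 12.1 to 31.7 CPM, and Itgb5 and Itga9 were 2-fold lower, with Itgb5 at 141 to 298 CPM against 302 to 593 CPM. Itgav had a median log2 ratio of 0.12, and Cd44 was below the level for comparison in both classes. Of 21 transcription factors compared, Mitf, Atf3 and Hif1a were at least 2-fold higher and Sall1 lower. Mitf, the factor that drives Gpnmb in pigment cells, was at 35.7 to 121 CPM against 20.9 to 36.9 CPM, and Tfeb and Tfe3 had ratios of 0.49 and -0.33. Of 10 interferon response genes 3 were at least 2-fold lower, Ifitm3, Ifi27l2a and Ly6e, and 0 higher.

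The summed markers of other cell types were compared between the classes. Summed neuronal markers were at 225 to 354 CPM in Spp1-high cells and 264 to 1792 CPM in other microglia. Blood myeloid markers were at 0 to 6.19 CPM, with 7 of the list's genes at 0 in each of the 7 libraries, Ly6c2 and S100a9 among them, against 5.39 to 12.7 CPM in others. Fibroblast markers were at 0 to 6.56 CPM against 0.0627 to 1.77 CPM, and endothelial and mural markers at 0 to 19.3 CPM against 20.3 to 34.6 CPM. Border macrophage markers were at 317 to 840 CPM against 387 to 599 CPM, where Dab2 met the 2-fold rule upwards, Ccr1 downwards, and Lyve1 was at 0. Red blood cell genes ranged from 9.07 to 1452 CPM in Spp1-high cells, highest in E13.5 saline replicate 3, and from 73.6 to 4042 CPM in others. Their part in the gene levels was not tested.

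The second question was whether Spp1-high cells differed between MIA and saline. At E13.5 each treatment had a single library with at least 10 members, so no test was made. At E15.5, 3 saline and 2 MIA libraries entered, since MIA replicate 3 had 8 members. Of 4460 genes, 2 were called, which is 0.0448% (edgeR quasi-likelihood test, adjusted p under 0.05), and 143 had an unadjusted p under 0.05.

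Lag3, an inhibitory immune receptor, was at 315 and 269 CPM in Spp1-high cells after MIA and at 85.3, 116 and 77.1 CPM after saline. The MIA libraries lay above each saline library, with a log2 fold change of 1.67 ± 0.29 (SE, edgeR adjusted p = 0.0461). The MIA library left out of the fit, replicate 3, had Lag3 at 198 CPM, and with it added the log2 fold change was 1.51 and the call was lost (edgeR adjusted p = 0.414). With the replicate pairs as a block the fold change was 1.54 and the adjusted p 0.252 (edgeR). The call was also lost without saline replicate 1, 2 or 3, with log2 changes of 1.62, 1.88 and 1.54. Without MIA replicate 1, which left a single MIA library, the log2 change was 1.53. In E15.5 MIA replicate 1, 127 of 149 members had a Lag3 UMI.

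Xist, the RNA that coats the inactive X chromosome in female cells, fell by 3.50 on the log2 scale (SE 0.503, edgeR adjusted p = 0.0107). It was at 25.6 and 37.1 CPM after MIA and 184, 604 and 177 CPM after saline. Pools held embryos of both sexes, and in MIA replicate 3, left out of the fit, Xist was at 422 CPM, inside the saline range. In MIA replicates 1 and 2, 13 of 149 and 1 of 19 members had a Xist UMI, against 15.6% and 34.0% of the other microglia of these libraries. The call was lost without saline replicate 2 (log2 change -2.61, edgeR adjusted p = 0.0631) and with MIA replicate 3 added (-1.36, 0.999). Without MIA replicate 1, which left a single MIA library, the log2 change was -3.11.

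The next genes by unadjusted p did not pass and are given as values. Klf2 was at 56.0 and 74.3 CPM after MIA and 19.7, 19.3 and 9.07 CPM after saline (edgeR adjusted p = 0.528), and Iqgap1, Sh3gl1, Rcan1 and Nudt5 followed, each with an edgeR adjusted p of 0.996. None of the genes tested of the axon tract, lipid, lysosome, interferon or homeostatic lists was called. Those tested were 28 of 34, 18 of 25, 24 of 27, 3 of 19 and 20 of 21 genes. Most interferon response genes were thus below the count filter, and their response was not tested. The axon tract list had a median log2 fold change of 0.10 over 28 genes, beside -0.01 over all genes tested.

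The MIA response of Spp1-high cells was then set against that of other microglia of the same 5 libraries, with the library as a block. Of 12743 genes 20 differed, or 0.157% (edgeR, adjusted p under 0.05). The log2 change in Spp1-high cells minus that in other microglia was above 0 for 6 and below 0 for 14, whichever class changed more. The median over all genes was 0.17 and moved to 0.03 under DESeq2's size factors, so values are read against these. DESeq2 called 1 gene. Among other microglia themselves edgeR called 0 of 13756 genes for MIA, with 398 at an unadjusted p under 0.05, and DESeq2 called 2. Without MIA replicate 1 or 2 a single MIA library was left, so no count is read from those fits.

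Several of the genes with a difference below 0 turned on few cells. Of the 14 genes, 10 had their highest Spp1-high level in E15.5 saline replicate 1, which had 11 members. Hspb1, a small heat shock protein gene, was at 1535 CPM there, and all 234 UMIs lay in 1 cell. The same cell held 94.4% of the Hmox1 UMIs of the library's members and all of those of Mmp12, Acod1, Hfm1 and Slc7a11. Gdf15 lay in another cell with all of its UMIs. Without this library 10 genes were called, and Hspb1, Acod1, Gdf15, Fn1 and Hmox1 changed sign.

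Gpnmb was among the 14. In Spp1-high cells it was at 136 and 74.3 CPM after MIA and at 85.3, 232 and 109 CPM after saline. In other microglia it was at 5.47 and 0.475 CPM after MIA and at 0.669, 1.77 and 0.253 CPM after saline, and the difference of the log2 responses was -1.93 ± 0.39 (SE, edgeR adjusted p = 0.00102). A single cell held 45.9% of the Gpnmb UMIs of the other microglia of MIA replicate 1. Without that library a single MIA library was left, and the difference was -0.07. The call was lost without saline replicate 3 (edgeR adjusted p = 0.0733).

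Lag3 had the larger response in Spp1-high cells, by 1.14 ± 0.26 (SE, edgeR adjusted p = 0.015). It was lower in other microglia, at 140 and 69.9 CPM after MIA and 40.3, 96.0 and 50.2 CPM after saline. The call was lost without E15.5 saline replicate 2 or 3, with differences of 0.76 and 1.18. It was also lost with libraries of at least 5 members (edgeR adjusted p = 0.0685). Without MIA replicate 1 or 2, which left a single MIA library, the differences were 1.47 and 0.92. The globin genes Hbb-bt, Hbb-bs and Hba-a1 differed as well. Hbb-bs was at 66.5, 1671 and 368 CPM in other microglia after saline and at 32.2 and 77.3 CPM after MIA, against 4.53 to 29.0 CPM in Spp1-high cells over the 5 libraries. Without MIA replicate 1 a single MIA library was left. The differences for Hbb-bt, Hbb-bs and Hba-a1 were then 5.01, 3.65 and 3.80, against 6.07, 3.99 and 4.37 with it. Without saline replicate 2 the difference for Hba-a1 was 1.81 (edgeR adjusted p = 1), and DESeq2 called Hbb-bt but neither Hbb-bs nor Hba-a1.

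The third question was how Spp1-high cells changed with age. The 2 E13.5 libraries numbered 3 and 5 E15.5 libraries entered, with treatment in the model. Of 6471 genes, 46 rose from E13.5 to E15.5, or 0.711%, and 68 fell, or 1.05% (edgeR, adjusted p under 0.05). Of the 68, 5 were genes that the gates used, and without the gate genes 63 of 6462 fell, or 0.975%, and 46 rose, or 0.712%. The balance of directions turned with DESeq2 (48 rose and 32 fell) and at a Spp1 threshold of 40 per 10,000 (72 and 49). It also turned with libraries of at least 20 members (317 and 251) or 5 members (49 and 45), and with the replicate block (18 and 16). Among barcodes with at least 2000 UMIs 77 rose and 84 fell, and 103 genes were called in both fits. The count ran from 40, without E15.5 MIA replicate 1, to 256, without E15.5 saline replicate 1. It was 56 without E15.5 saline replicate 2. Fits without either E13.5 library, or in saline libraries only, left a single E13.5 library, so no count is read from them.

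Genes of the axon tract list were among those that rose. Of 30 tested 11 rose and 0 fell, with a median log2 fold change of 0.92 beside -0.00 over all genes tested, and the 11 were Ephx1, Cst7, Fam20c, Gpnmb, Cd9, Plaur, Pld3, Igf1, Gas2l3, Cd68 and Ctsl. The count of rising genes of the list was 1 without E15.5 saline replicate 2 and 2 without E15.5 MIA replicate 1. It was 20 without E15.5 saline replicate 1 and 2 with the replicate block. In these fits, and in those that left a single E13.5 library, the list's median lay between 0.61 and 1.03. Fam20c was at 21.2 and 25.8 CPM in the E13.5 libraries and at 49.5 to 150 CPM in the E15.5 libraries, with a log2 fold change of 1.80 ± 0.35 (SE, edgeR adjusted p = 0.00519). In other microglia it stood at 1.63 to 6.68 CPM over the 7 libraries. Plaur rose by 1.63 ± 0.35, Sdc4, a syndecan, by 1.66 ± 0.33, and the lysosomal protease Ctsa by 1.14 ± 0.23 (SE, edgeR). With the replicate block Sdc4 was still called, and Plaur and Ctsa were not. Lpl and Fabp5 were not called.

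Of 21 homeostatic genes tested 2 rose, Crybb1 and Sparc, and 0 fell. With libraries of at least 20 members 9 rose and 3 fell, the latter P2ry13, Tmem119 and Sall1. The log2 change of Sparc ran from 0.918 to 2.03 without 1 library. Crybb1, a crystallin gene of microglia, was at 135 and 365 CPM at E13.5 and at 695 to 1354 CPM at E15.5, with a log2 fold change of 2.39 ± 0.29 (SE, edgeR adjusted p = 1.77e-05). In other microglia of these libraries Crybb1 was at 312 and 340 CPM at E13.5 and 920 to 2286 CPM at E15.5. Sparc and the cystatin Cst3 rose by 1.42 ± 0.26 and 1.07 ± 0.21 (SE, edgeR). Among the 15 rising genes of smallest p were also Nexn, Lag3, Aig1, Pmp22, the chemokine Ccl6, the lipopolysaccharide co-receptor Cd14, Atf3 and Pdzk1ip1. Whether these changes were larger in Spp1-high than in other microglia was not tested.

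Most DNA replication genes tested were called lower at E15.5 in the main fit, and the number called varied between fits. Of 15 tested 10 fell and 0 rose, with a median log2 fold change of -1.48, among them Mcm2, Mcm3, Mcm5, Mcm6, Mcm7, Rrm1, Rrm2, Tyms, Dut and Uhrf1. Pclaf, a partner of the replication clamp, was at 90.5 and 144 CPM at E13.5 and 0 to 13.1 CPM at E15.5, and Cdk1, Smc4, Cenpa and histone genes such as Hist1h1b fell as well. The gate removed cells with 8 or more UMIs of dividing-cell genes whatever their depth, and E13.5 members were shallower. Of the gate genes, 5 were themselves among those that fell. The part of the gate and of depth in the fall was not tested. Among barcodes with at least 2000 UMIs 11 of the 15 replication genes fell, with a median of -1.43. Without E15.5 MIA replicate 1, 3 of the 15 were called as falling, with a list median of -1.51. In the fits that left a single E13.5 library only the list medians are read. They were -1.55 without E13.5 saline replicate 3, and -1.24 both without E13.5 MIA replicate 3 and in saline libraries only, over 13 genes tested. With DESeq2 5 were called (median -1.53), with the replicate block 2 (-2.01) and at a Spp1 threshold of 40 per 10,000 3 (-1.20). With libraries of at least 20 members 13 were called (-1.28), and with no filter on low counts 11 (-1.44). All 4 globin genes tested fell, with a median of -3.41. DESeq2 called 0 of them with a median of -3.80. Without E13.5 saline replicate 3 a single globin gene passed the count filter. Hba-a1 was at 366 CPM in E13.5 saline replicate 3, 7.93 CPM in E13.5 MIA replicate 3 and 4.53 to 13.1 CPM at E15.5. AY036118 and Gm42418, which overlap ribosomal RNA repeats, fell by 3.77 and 1.92 on the log2 scale and stood at 512 and 1689 CPM (AY036118) and at 4308 and 13981 CPM (Gm42418) in other microglia of the E13.5 libraries.

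At P14 the class was nearly absent. The same gates found 10 cells among 29263 microglia of 6 libraries, or 0.0342% (0.0164 to 0.0628). Of the 10, 5 carried a barcode also seen in another sorted library, and without such barcodes the share was 0.0177% (0.00574 to 0.0413, 5 of 28274). These 10 cells held Lpl at 3062 CPM against 45.5 CPM in other P14 microglia, Lgals3 at 1013 against 0.962 CPM, Fabp5 at 573 against 13.9 CPM and P2ry12 at 1146 against 6085 CPM. In the 5 cells without shared barcodes the levels were 3445 CPM for Lpl, 1201 for Lgals3, 339 for Fabp5 and 1331 for P2ry12, from 132, 46, 13 and 51 UMIs. Gpnmb was found in 1 UMI. With 0 to 3 cells per library no comparison between MIA and saline was made.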

How the data were processed

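The authors deposited UMI counts per gene and barcode for called cells of each library, made with Cell Ranger 3.1.0 (per the file headers) against mm10 from droplet libraries, with no normalization. Here barcodes were filtered and gated as stated, UMI counts were summed per library and class, and fits used the quasi-likelihood test of edgeR 4.0.16 (TMM, filterByExpr, Benjamini-Hochberg at 0.05) in libraries with at least 10 members. DESeq2 1.42.0 was an alternative. R 4.3.3, Python 3.11.15 and scipy 1.17.1 were used. The main fits of MIA at E15.5, of age and of the difference of responses were tried on simulated counts. These had the same dispersion for every gene and held no outlying cells. CPM + 1 was the scale of class ratios. Named genes were the 25 highest and 15 lowest ratios, genes of fixed lists, and up to 15 called genes of smallest p in each direction, or the 5 of smallest unadjusted p where fewer than 5 were called. The members and lists were chosen with earlier results of these data known.

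Doublets were scored with Scrublet (scanpy 1.11.5). Its automatic threshold marked 0 to 0.408% of barcodes in 10 of 12 embryonic libraries and 3.93% and 2.13% in the others, so removal of the highest scores, 0.8% per 1000 barcodes, was an alternative. E15.5 libraries of equal replicate number were taken as pairs, which the labels do not name. Deviations of saline and MIA libraries of equal number correlated at 0.692, 0.408 and 0.769 over 2826 genes at E15.5, and at 0.599, 0.0229 and 0.179 at E13.5. Settings with at least 2000 UMIs, at least 3 Spp1 UMIs, libraries of at least 5 members or no barcodes shared between libraries were chosen after seeing the data. The labels give no sequencing batch. Libraries held between 280 and 6375 kept barcodes, and the small number of members limits precision. Some genes of the lists are not reported here by name.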

Additional observations from a re-analysis of the deposited data

Results flagged for a closer look

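The MIA response at E15.5 differed between Spp1-high and other microglia in 20 genes by edgeR's test of the difference itself. The sign of a difference does not say which class changed more. In log2 units (Spp1-high minus other) the differences above 0 were 6.07 for Hbb-bt, 3.99 for Hbb-bs, 4.37 for Hba-a1, 1.14 for Lag3, 11.8 for Dqx1 and 1.76 for Nudt5. The differences below 0 were -4.78 for Hspb1, -1.68 for Xist, -3.40 for Uchl1, -6.33 for Mmp12, -1.93 for Gpnmb and -3.11 for Egr1. They were -13.6 for Hfm1, -2.72 for Rgs1, -11.1 for Acod1, -3.83 for Gdf15, -3.26 for Fn1, -0.97 for Hmox1, -1.98 for Mllt11 and -10.5 for Slc7a11. The Xist difference ran from -3.10, without MIA replicate 1, to -0.94, without MIA replicate 2, and both fits left a single MIA library. Its call was lost with libraries of at least 5 members (edgeR adjusted p = 0.223). The Uchl1 difference was -0.88 without saline replicate 1, where its call was lost, and -2.17 without MIA replicate 1. Without MIA replicate 1 the Egr1 and Rgs1 differences were -10.1 and -1.39. The Egr1 call was lost without saline replicate 3 (edgeR adjusted p = 0.47) and the Rgs1 call without saline replicate 2 (0.271). Values beyond 10 come from genes at 0 in several libraries and depend on the prior count, so they are no measure of size. Dqx1 was at 11.7 CPM in the Spp1-high cells of MIA replicate 1 and at 0 in those of each other E15.5 library. The Nudt5 call was lost without saline replicate 1, 2 or 3 (edgeR adjusted p = 0.137, 0.484 and 0.292) and with at least 2000 UMIs (0.121).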

How the results depend on the processing

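At E15.5 MIA called 12 genes with no filter on low counts, 1 with the replicate block and 1 with at least 2000 UMIs. It called 0 with libraries of at least 5 members (46 at an unadjusted edgeR p under 0.05) and 0 to 1 without 1 saline library. Between ages 227 genes were called with no filter, 568 with libraries of at least 20 members, 34 with the replicate block, 18 in saline libraries only and 12 to 256 without 1 library. In the age fit the block joins E15.5 libraries treated as pairs, but also libraries of equal number across ages. Across ages the deviations of libraries of equal number and treatment correlated between -0.688 and 0.288. Those of E13.5 MIA replicate 3 and E15.5 MIA replicate 1 correlated at 0.695, and of E13.5 saline replicate 3 and E15.5 saline replicate 1 at 0.48. The difference of responses called 1 gene with DESeq2, 10 with at least 2000 UMIs, 11 with libraries of at least 5 members and 10 to 17 without 1 saline library. At least 2-fold apart were 193 genes on the log2 of CPM + 10 and 699 with no minimum level.

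The share difference for MIA ranged from -0.429 to 2.09 points at E13.5 and from 0.102 to 1.53 at E15.5 without 1 library, and the Spp1 level difference at E15.5 from -28.2 to 437 CPM. Removing barcodes seen in another library gave share differences of 0.634 and 1.08 points and -0.711 between ages. The MIA share tests could not reach a p under 0.1 in any setting, or 0.25 with the replicate block, so their p-values say nothing of stability. With at least 2000 UMIs, which left E15.5 saline replicate 1 with 8 members and out of the fit, the differences of response were 9.73 for Hspb1, 1.24 for Acod1, 0.77 for Gdf15, 0.23 for Fn1 and 0.37 for Hmox1. Without 1 library they ranged from -14.3 to 9.74, -15.5 to 1.26, -11.4 to 0.78, -4.12 to 0.11 and -1.90 to 0.35. The E13.5 MIA fit, and at E15.5 the fits at a threshold of 40 or with at least 20 members, had under 2 libraries in a group and were not run.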

Other observations

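The gates also left out Spp1-rich microglia. Of 585 barcodes with at least 2 UMIs of Csf1r and C1qa and Spp1 at 20 per 10,000 or more, 48 were removed for Ms4a7 and 88 for dividing-cell genes, 57 of the latter in E13.5 MIA replicate 3. Another 23 Spp1-rich barcodes held under 2 UMIs of Csf1r and C1qa.

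Over all gated microglia, the genes whose CPM ranked most like Spp1 across the 12 libraries were Cd9 (Spearman 0.818), Unc50 (0.727), 2310033P09Rik (0.72), Ccl2 (0.713), Cdc42se1 (0.664), Tm2d1 (0.65), Igf1 and Fabp3 (0.636 each), and Emc7 and Pcyox1l (0.629 each), of 5616 genes compared. The libraries differ in age and depth, and the values are a description.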
